A study of Homo sapiens with 5 samples.

Results

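The PGC1 coactivators and the mitochondrial biogenesis factors that act with them were examined in human melanoma cells and melanocytes silenced for BPTF, the largest subunit of the chromatin remodelling complex NURF. The set holds 10 genes of the 31029 listed for both cell lines, taken as a list of symbols and matched to Ensembl identifiers through GENCODE release 29. It comprises the coactivators PPARGC1A, PPARGC1B and PPRC1, the nuclear receptors ESRRA and ESRRG, and the respiratory factors NRF1 and GABPA. TFAM, TFB1M and TFB2M, grouped by name as mitochondrial transcription factors, complete it. The genes were chosen from their read counts in these same libraries, above all the level of PPARGC1A in each line, so their values are given as a description with no test.

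PGC1 proteins do not bind DNA themselves. They are recruited by transcription factors such as the oestrogen-related receptors, NRF1 and GABP to genes of oxidative metabolism in the nucleus. The products of a few of these genes, TFAM, TFB1M and TFB2M, then enter the mitochondrion and act on its genome or its RNA. In the melanocyte lineage PPARGC1A is known as a target of MITF, the lineage's master regulator, and as a driver of an oxidative state in a subset of melanomas.

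RNA-seq counts were used from 5 libraries of rRNA-depleted total RNA, all from cells infected with a lentiviral pLKO vector expressing an shRNA against BPTF and kept for 5 days in puromycin at 3 µg/ml. Replicates 1 and 2 were 501Mel cells, a human melanoma line that expresses MITF, and replicates 1, 2 and 3 of the other group were Hermes 3A cells, an untransformed human melanocyte line. Hermes 3A cells were grown with added TPA, cholera toxin, stem cell factor and endothelin-1, which 501Mel cells did not receive, so line and medium cannot be told apart. Cells given a control shRNA or an shRNA against MITF were not analysed here, so the effect of the knockdown on any gene below was not measured. The labels do not say which of the shRNAs a library carries, nor whether replicates were separate cultures, and p-values then measure only the spread between these samples, which may be technical.

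The libraries held 30073071 to 43032311 counts. Within a line, log2 profiles over 13823 genes correlated at Pearson's r of 0.978 to 0.993, and between lines at 0.859 to 0.878, across genes that are not independent replicates. Hermes 3A replicate 1 stood apart from replicates 2 and 3 (r of 0.979 and 0.978, against 0.993 between the latter). BPTF, the targeted gene, was at 65.8 and 57.8 CPM (counts scaled to a library total of 1000000) in 501Mel and at 45.8, 51.6 and 54.1 CPM in Hermes 3A, which checks no label since both lines carry the knockdown. The 8 melanocyte markers summed to 1.31% and 2.00% of counts in 501Mel and 3.21% to 3.32% in Hermes 3A. Of them, 1 was called higher in 501Mel (DCT) and 2 in Hermes 3A (PMEL and MLANA), against 17.2% and 17.1% of all genes. A gene was called where edgeR's quasi-likelihood test gave an adjusted p of at most 0.05 and the difference was at least 2-fold. DCT was called in each of the 13 alternatives, whereas PMEL was not called without 501Mel replicate 1 or Hermes 3A replicate 3, nor MLANA without 501Mel replicate 1 or Hermes 3A replicate 1. DCT, a melanin synthesis enzyme, was at only 7.37 to 13.1 CPM in Hermes 3A. MITF itself did not pass the test (log2 difference 0.17 ± 0.163, edgeR adjusted p = 0.429), and SOX10, TYR, TYRP1 and KIT were not called, though TYR was without 501Mel replicate 2 or Hermes 3A replicate 3 and TYRP1 with DESeq2 and with no filter.

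A pair of other marker lists was read in the same libraries. The 4 fibroblast markers summed to 9.43 and 1.88 CPM in 501Mel and to 71.2, 182 and 189 CPM in Hermes 3A. COL1A2, a collagen chain, made up nearly all of the Hermes 3A sum, at 69.5, 180 and 187 CPM against 0.0697 and 0.106 CPM in 501Mel, while COL1A1, PDGFRA and PDGFRB were at or under 6.53 CPM in every library. By the rule for a call, 1 of the 4 (COL1A2) was higher in Hermes 3A and 0 in 501Mel, against 17.1% and 17.2% of all genes. At any size 2 of the 4 were higher in 501Mel, and 3 of the 4 overlapped between the lines. COL1A1 was called in 5 of the 13 alternatives. Of the keratinocyte markers, KRT10 was listed for both lines, at 32.6 to 47.4 CPM. The part of either list in the values below was not tested.

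With all libraries, PPARGC1A had the largest fitted log2 difference of the 10 genes between the lines (ENSG00000109819, chr4:23755041-23904089 on the minus strand of GRCh38). It encodes PGC1α, the coactivator most closely tied to mitochondrial biogenesis. It was at 62.0 and 93.5 CPM in 501Mel, from 2666 and 3539 counts, and at 9.51, 7.17 and 8.18 CPM in Hermes 3A, from 396, 293 and 246 counts. Every 501Mel library was thus above every Hermes 3A library, and the 501Mel replicates were the more spread (77.7 ± 22.3 against 8.29 ± 1.17 CPM, mean ± SD, n = 2 and 3). The ratio of the means was 9.38. On the log2 scale the fitted difference, 501Mel minus Hermes 3A, was 3.16 ± 0.246 (standard error, edgeR). CPM is a share of a bulk library, so fewer cells with a transcript and fewer transcripts per cell cannot be told apart here or below.

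The other coactivators stood closer together. PPARGC1B (ENSG00000155846, chr5:149730298-149855022, plus strand), which encodes the paralogue PGC1β, was at 29.4 and 26.7 CPM in 501Mel and at 20.8, 18.9 and 22.8 CPM in Hermes 3A. PPRC1 (ENSG00000148840, chr10:102132994-102150331, plus strand), a growth-responsive relative of both, was at 118 and 88.3 CPM in 501Mel and at 67.5, 79.6 and 67.9 CPM in Hermes 3A. Both genes were higher in each 501Mel library than in any Hermes 3A library, by log2 differences of 0.37 ± 0.179 for PPARGC1B and 0.46 ± 0.158 for PPRC1. The all-gene median difference was 0.02.

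Since PPARGC1A moved far more than its paralogue, the balance between them was read within each library, per kb of exon. The ratio of PPARGC1A to PPARGC1B was 2.50 and 4.15 in 501Mel and 0.542, 0.451 and 0.426 in Hermes 3A. PPARGC1A was therefore the more abundant of the pair per kb in the melanoma line and the less abundant in the melanocytes. With the longest transcript as the length, the ratios were 3.52 and 5.86 against 0.764, 0.636 and 0.601, on the same sides of 1.

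**Figure D1:**
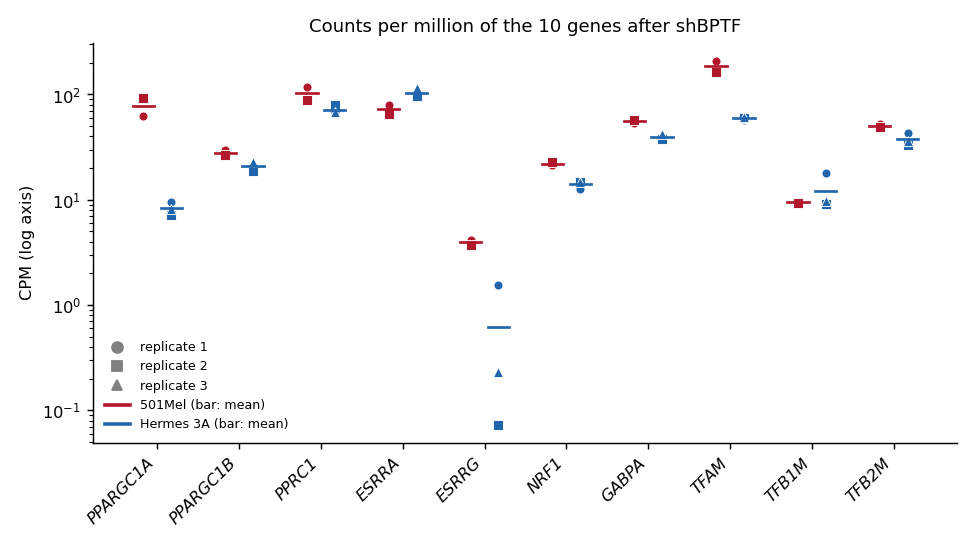
CPM (log axis) of the 10 genes in each library, with 501Mel shBPTF in red (n = 2), Hermes 3A shBPTF in blue (n = 3), marker shape for the replicate number and a bar at the group mean. PPARGC1A and TFAM show a wide gap between the lines, ESRRA is the gene with all Hermes 3A points above 501Mel, and Hermes 3A replicate 1 stands above the others for ESRRG and TFB1M.

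The nuclear receptors went opposite ways. ESRRA (ENSG00000173153, chr11:64305572-64316743, plus strand) encodes ERRα, the receptor through which PGC1α reaches many respiratory genes. It was at 79.3 and 65.6 CPM in 501Mel and at 98.1, 96.0 and 115 CPM in Hermes 3A. It was the gene of the 10 whose Hermes 3A libraries all lay above the 501Mel libraries, by a log2 difference of -0.57 ± 0.157. Its exons share 284 bases with TRMT112 on the opposite strand, which had 4031 to 10107 counts in each library. Since the sources used here do not say whether reads were counted by strand, reads of that stretch cannot be assigned to either gene. Per kb of exon, ESRRA exceeded PPARGC1A in each library, by 4.59 and 2.52 times in 501Mel and by 37.0, 48.0 and 50.6 times in Hermes 3A. With the coding length in place of all exons the ratios were smaller, 2.41 and 1.32 in 501Mel and 19.5, 25.3 and 26.6 in Hermes 3A.

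ESRRG (ENSG00000196482, chr1:216503246-217137755, minus strand), which encodes the related receptor ERRγ, was the rarest of the 10 genes. It was at 4.14 and 3.72 CPM in 501Mel and at 1.56, 0.0734 and 0.233 CPM in Hermes 3A, the latter from 65, 3 and 7 counts. The 501Mel libraries all lay above, but Hermes 3A replicate 1 was 10.2 times the mean of replicates 2 and 3. The log2 difference was 2.53 ± 0.993 with all libraries and 4.67 ± 0.576 without Hermes 3A replicate 1, then above that of PPARGC1A (3.29). The size of the ESRRG difference thus rests largely on that 1 library.

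The respiratory factors both sat modestly higher in 501Mel. NRF1 (ENSG00000106459, chr7:129611714-129757082, plus strand), a factor that binds GC-rich palindromes in nuclear genes for mitochondrial proteins, was at 21.2 and 22.8 CPM in 501Mel and at 12.7, 14.9 and 14.6 CPM in Hermes 3A. GABPA (ENSG00000154727, chr21:25734570-25772460, plus strand), the DNA-binding ETS subunit of GABP, was at 53.6 and 57.6 CPM in 501Mel and at 37.4, 38.2 and 42.1 CPM in Hermes 3A. Neither gene's groups overlapped, and the log2 differences were 0.59 ± 0.183 for NRF1 and 0.44 ± 0.143 for GABPA. The exons of GABPA share 413 bases with ATP5PF on the opposite strand, which had 2844 to 5252 counts in each library. As for ESRRA, reads of that stretch cannot be assigned to either gene. The beta subunits that complete GABP did not pass the test, with log2 differences of -0.02 ± 0.237 for GABPB1 (adjusted p = 0.961) and 0.07 ± 0.235 for GABPB2 (adjusted p = 0.823, edgeR).

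Among TFAM, TFB1M and TFB2M, TFAM stood out. TFAM (ENSG00000108064, chr10:58385022-58399221, plus strand) packages mitochondrial DNA and bends its promoters for transcription. It was at 209 and 162 CPM in 501Mel and at 57.6, 59.4 and 61.3 CPM in Hermes 3A, where the replicates were nearly level. The groups were far apart (185 ± 32.7 against 59.4 ± 1.80 CPM, mean ± SD, n = 2 and 3), with a ratio of means of 3.12 and a log2 difference of 1.58 ± 0.145. The processed pseudogene TFAMP1 held 1 count in all, and TFAMP2, listed for Hermes 3A only, held 0 in each library there. The counting tool is not given in the sources used here, so reads shared between TFAM and a copy cannot be assessed.

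TFB2M (ENSG00000162851, chr1:246540560-246566324, minus strand), the promoter-melting partner of the mitochondrial RNA polymerase, was at 52.8 and 48.6 CPM in 501Mel and at 43.3, 33.5 and 36.4 CPM in Hermes 3A. The log2 difference of 0.36 ± 0.180 came with groups that did not overlap. TFB1M (ENSG00000029639, chr6:155257509-155314493, minus strand), a methyltransferase that modifies the small ribosomal RNA of the mitochondrion, was at 9.55 and 9.32 CPM in 501Mel and at 18.0, 9.03 and 9.64 CPM in Hermes 3A. It was the gene of the 10 whose groups overlapped. Hermes 3A replicate 1 was 1.92 times the mean of replicates 2 and 3, and the log2 difference of -0.45 ± 0.368 became -0.04 without that library. Its exons share 215 bases with TIAM2 on the opposite strand, which had 164 to 381 counts in each library.

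The ratios within libraries were read for these factors too. Per kb of exon, TFAM to TFB2M was 1.30 and 1.10 in 501Mel and 0.439, 0.585 and 0.554 in Hermes 3A. With the coding length it was 6.35 and 5.37 in 501Mel and 2.14, 2.86 and 2.71 in Hermes 3A, so which of the pair is the more abundant in Hermes 3A depends on the length. With either length the 501Mel ratios lay above those of Hermes 3A. TFB2M to TFB1M was 8.19 and 7.72 in 501Mel and 3.57, 5.48 and 5.60 in Hermes 3A, the lowest value being that of replicate 1. With the longest transcript it was 4.26 and 4.02 against 1.86, 2.85 and 2.91.

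Taking the 10 genes as a set, 9 did not overlap between the lines, 8 of them higher in 501Mel and 1 higher in Hermes 3A. Of all 17975 genes tested, 69.8% did not overlap, 37.9% with 501Mel higher and 31.9% with Hermes 3A higher. The members were chosen on this same contrast, so their count under the rule for a call is a description and no test of them, and nothing is read from it. It held for 2 of the 10, PPARGC1A and TFAM, both higher in 501Mel, against 34.3% of all genes called in either direction, 17.2% higher in 501Mel and 17.1% higher in Hermes 3A. Within Hermes 3A, 1 of the 10, ESRRG, had a highest library at least 2-fold above the lowest, against 27.7% of all genes. The median log2 difference of the 10 was 0.45. All 10 passed the filter on low counts.

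**Figure D2:**
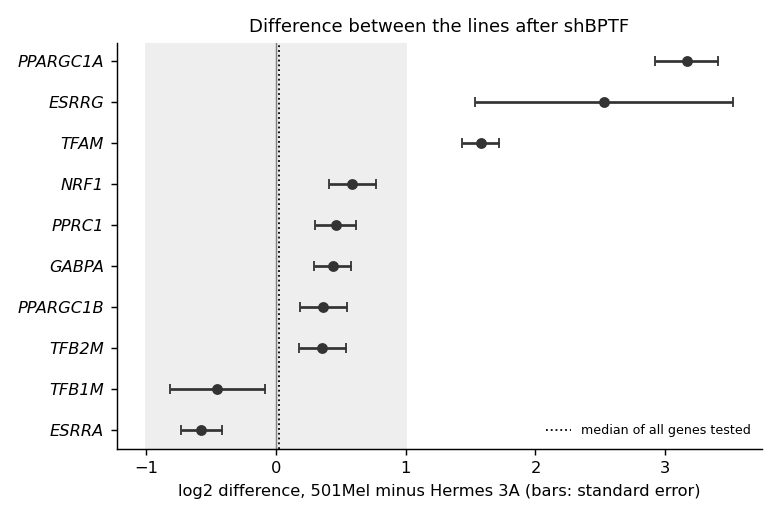
Fitted log2 difference between the lines, 501Mel minus Hermes 3A, for the 10 genes, with bars of 1 standard error. The dotted line is the median of all genes tested (0.02) and the shaded band spans a 2-fold difference in either direction. PPARGC1A (3.16), ESRRG (2.53) and TFAM (1.58) lie outside the band, and the bar of ESRRG is the widest.

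The levels of the 10 genes were then ordered within each line, as CPM per kb of the union of all annotated exons. In 501Mel the order was TFAM at 33.1, TFB2M at 27.4, ESRRA at 23.9, PPRC1 at 16.9, GABPA at 10.2, PPARGC1A at 7.15, NRF1 at 5.33, TFB1M at 3.45, PPARGC1B at 2.18 and ESRRG at 0.360 CPM per kb. No neighbours in that order overlapped over the 2 libraries. In Hermes 3A it was ESRRA at 34.1, TFB2M at 20.4, PPRC1 at 11.8, TFAM at 10.6, GABPA at 7.23, TFB1M at 4.46, NRF1 at 3.40, PPARGC1B at 1.62, PPARGC1A at 0.762 and ESRRG at 0.0570 CPM per kb. There TFB1M and NRF1 overlapped and did not differ beyond their spread.

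By this length PPARGC1A moved from rank 9 in Hermes 3A to 6 in 501Mel and TFAM from 4 to 1. With the coding length PPARGC1A moved from 9 to 5, TFB1M from 6 to 9 and TFAM only from 2 to 1. By that length TFB1M overlapped PPRC1 and NRF1 in Hermes 3A and PPARGC1B in 501Mel, and TFAM overlapped ESRRA in Hermes 3A. Those neighbours did not differ beyond their spread. ESRRA was in rank 1 in the melanocytes and in rank 3 in the melanoma line, or 2 with the other lengths. With the longest transcript ESRRA overlapped TFAM in 501Mel. The libraries were treated with a duplex-specific nuclease, which lowers abundant transcripts more than rare ones, so the distances between genes are compressed to an unknown extent.

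**Figure D3:**
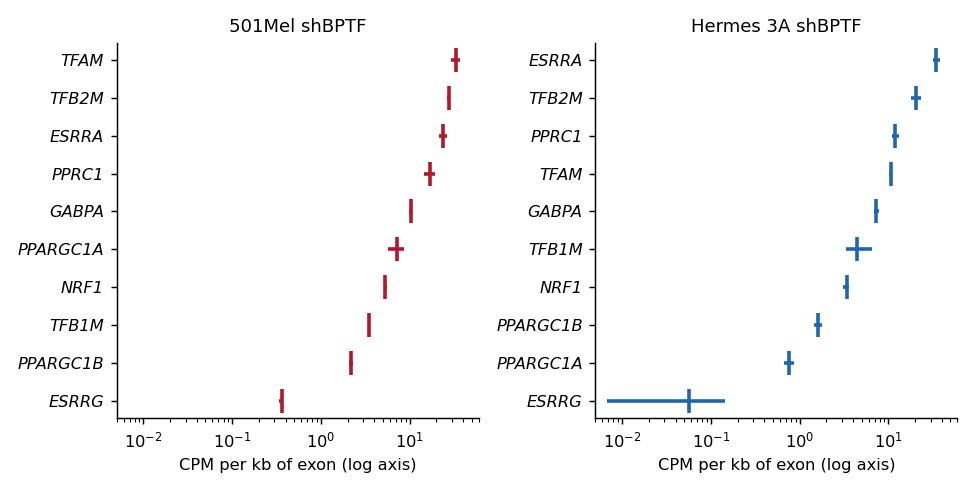
CPM per kb of exon (log axis) of the 10 genes in 501Mel shBPTF (left, n = 2) and Hermes 3A shBPTF (right, n = 3), each sorted by its own mean. Ticks mark the mean and horizontal bars run from the lowest to the highest library. PPARGC1A sits in rank 6 on the left and in rank 9 on the right, and the bar of ESRRG in Hermes 3A spans the widest range.

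NRF1 and GABPA, both among the 10, are known to bind promoters of other members, so the proximal promoters were searched for their motifs. RefSeq promoters on GRCh38.p14 were at hand for 9 of the 10 genes, NRF1 being the exception, and the 250 bases before each start were read on both strands. The NRF1 motif was taken as GCGCA and GCGC with any base between them. It was found for ESRRA, TFAM and TFB1M, and for 6.20% of all 27305 genes with an entry. A gene was counted, here and below, where any of its promoters held a match. The windows below label this motif a palindrome, which holds in full only where the base between is T, as for TFB1M. A shorter NRF1 motif, TGCGCA, labelled the core below, was found for ESRRA and TFB2M and for 8.28% of all genes. The ETS motif CGGAAG, the kind GABPA recognises, was found for GABPA, TFB1M and TFB2M and for 19.4% of all genes. Per promoter the shares were 5.07%, 6.89% and 16.5% of 35116, and the 9 members had 17 promoters. PPARGC1A, PPARGC1B, PPRC1 and ESRRG held none of these letters in this window. A match is a description of sequence and not a bound site.

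The following windows are shown for TFAM, TFB1M and TFB2M and for the members that carry the same motifs. Each reads 5′ to 3′ on the strand of its gene, with the matching bases in capitals and, for a match on the other strand, the reverse complement of the motif.
TFAM, NRF1 palindrome 63 bases before the start, chr10:58385337-58385366: acgctctcccGCGCCTGCGCcaattccgcc
TFB1M, NRF1 palindrome 132 bases before the start, chr6:155314597-155314626: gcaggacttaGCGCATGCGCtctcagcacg
ESRRA, NRF1 palindrome 93 bases before the start, chr11:64305421-64305450: tcgtccgggcGCGCAGGCGCcgcccgcccc
TFB2M, NRF1 core 12 bases before the start, chr1:246566262-246566291: aaggctccgctgttcgcaTGCGCAggctct
TFB2M, ETS motif 59 bases before the start, chr1:246566303-246566332: gctgagccgaggCGGAAGcggaagtgaggg
TFB1M, ETS motif 85 bases before the start, chr6:155314552-155314581: ccgcggtcatcgCTTCCGgtgggataggtc
GABPA, ETS motif 66 bases before the start, chr21:25734894-25734923: acctccgctctaCTTCCGgccctggctccg

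The TFB1M and ESRRA windows lie outside any GENCODE gene. Those of TFAM and GABPA lie within exons of the same genes, in transcripts that GENCODE starts farther upstream than RefSeq, and the GABPA window also lies in an exon of ATP5PF on the other strand. The TFB2M core window lies in an exon of TFB2M, and its ETS window overlaps that exon by 22 bases. The lower-case stretch right after the TFB2M capitals holds another copy of the ETS motif, 53 bases before the start. TFB1M and TFB2M thus hold both kinds of motif, as does none of the other members with a promoter entry. Of the genes with the longer NRF1 motif, TFAM was 3.12 times as high in 501Mel, and TFB1M and ESRRA were not higher there. Whether the motif has a part in these levels was not tested.

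The mitochondrial genome was read next. The 13 mRNAs encoded by mitochondrial DNA summed to 4.82% and 5.28% of counts in 501Mel and to 2.96%, 2.41% and 2.33% in Hermes 3A (5.05 ± 0.330% against 2.57 ± 0.344%, mean ± SD, n = 2 and 3). For 12 of the 13, both 501Mel libraries lay above all Hermes 3A libraries, against 37.9% of all genes. By the rule for a call, 6 of 13 were higher in 501Mel and 0 higher in Hermes 3A, against 17.2% and 17.1% of all genes. The median log2 difference of the 13 was 0.87. As mRNAs of 1 genome they are not independent of each other, so these counts are not as many separate results.

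The leading transcript was MT-ND2, a complex I subunit, at 2093 and 2891 CPM in 501Mel and at 1157, 830.4 and 805.8 CPM in Hermes 3A (log2 difference 1.35 ± 0.260, adjusted p = 0.00492, edgeR). MT-CYB, the cytochrome b of complex III, followed at 1.27 ± 0.283 (adjusted p = 0.00909, edgeR), then MT-ATP6 of the ATP synthase at 1.19 ± 0.208 (adjusted p = 0.00341, edgeR) and MT-CO2 of cytochrome c oxidase at 1.03 ± 0.242 (adjusted p = 0.0113, edgeR). MT-ND6, named after its values were seen, is the mRNA of the 13 that is copied from the other strand of the mitochondrial genome. Whether reads were counted by strand is not known here, so its reads cannot be told from those of the opposite strand. MT-ND6 was at 817.3 and 770.9 CPM in 501Mel and at 869.2, 658.0 and 627.8 CPM in Hermes 3A. Its log2 difference of 0.08 ± 0.209 was the smallest of the 13 (adjusted p = 0.787, edgeR).

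Most of these calls lay close to the 2-fold limit. The count of 6 became 3 without 501Mel replicate 2, 2 without Hermes 3A replicate 3, 8 without Hermes 3A replicate 1 and 3 with no filter on low counts, while MT-ND2 and MT-ATP6 were called in each of the 12 alternatives that tested them. Nuclear copies of mitochondrial sequence can share reads with these genes, and the nuclease treatment lowers the most abundant transcripts, so the size of the difference is uncertain.

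**Figure D4:**
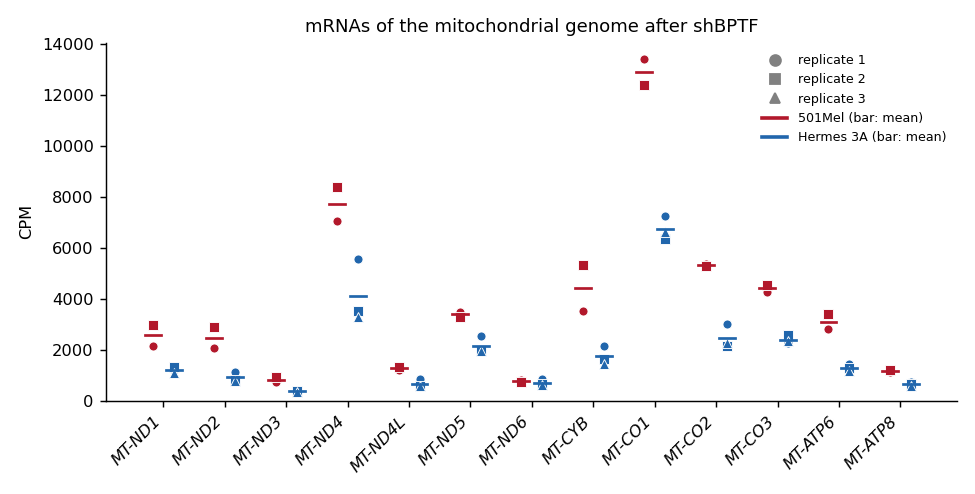
CPM of the 13 mRNAs of the mitochondrial genome in each library, with 501Mel shBPTF in red (n = 2), Hermes 3A shBPTF in blue (n = 3) and a bar at the group mean. For 12 of them both 501Mel points lie above all Hermes 3A points, and MT-ND6 is the exception.

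The nuclear machinery that copies and processes mitochondrial RNA and DNA was next compared, in a list of 42 genes tested beside the members. It held 5 genes called higher in 501Mel and 1 called higher in Hermes 3A, smaller shares than the 17.2% and 17.1% of all genes, with a median log2 difference of 0.15. The lines did not overlap for 21 genes with 501Mel higher and 8 with Hermes 3A higher, against 37.9% and 31.9% of all genes. None of its 7 transcription genes was called by edgeR's test. The called genes were in RNA processing and in replication. FASTKD3, of the FASTK family of mitochondrial RNA-binding proteins, was at 43.0 and 34.5 CPM in 501Mel and 10.9 to 16.0 CPM in Hermes 3A (log2 difference 1.48 ± 0.210, adjusted p = 0.00145, edgeR). FASTKD2, of the same family, differed by 1.21 ± 0.189 (adjusted p = 0.00211, edgeR), and TRMT10C, a subunit of mitochondrial RNase P, by 1.13 ± 0.167 (adjusted p = 0.00166, edgeR). TWNK, the helicase of the mitochondrial replisome, differed by 1.21 ± 0.202 (adjusted p = 0.00282, edgeR). TK2, the mitochondrial thymidine kinase, was higher in Hermes 3A, at a log2 difference of -1.14 ± 0.230 (adjusted p = 0.00604, edgeR). Without Hermes 3A replicate 3 the count of 5 became 3, and the count of 1 became 2 without 501Mel replicate 2 and 3 without Hermes 3A replicate 2. TRMT10C was not called without Hermes 3A replicate 3, nor FASTKD2 and TK2 without 501Mel replicate 1.

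Downstream of the coactivators, 52 known PGC1 and ERR target genes were tested. They went both ways: 2 were called higher in 501Mel and 4 higher in Hermes 3A, against 17.2% and 17.1% of all genes, and 46 were not called. At any size 19 of the 52 were higher in 501Mel, and their median log2 difference was -0.30. In 26 of the 52 all Hermes 3A libraries lay above 501Mel, and in 12 the 501Mel libraries lay above, against 31.9% and 37.9% of all genes. All 6 called genes were called in each of the 13 alternatives.

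Of the 25 respiratory chain and TCA cycle genes, 1 was called, UQCRFS1, the Rieske iron-sulphur protein of complex III, at -1.21 ± 0.162 (adjusted p = 0.00111, edgeR). The 14 fatty acid oxidation genes had the lowest median of the groups, -0.66. Among them CPT1A, which admits long-chain fatty acids to the mitochondrion, was at 8.78 and 22.5 CPM in 501Mel and 108, 72.3 and 65.7 CPM in Hermes 3A (log2 difference -2.46 ± 0.448, adjusted p = 0.00397, edgeR). ACADVL, the very long-chain acyl-CoA dehydrogenase, differed by -2.39 ± 0.218 (adjusted p = 0.000236, edgeR). PDK4, a kinase that restrains pyruvate oxidation, went the other way, at 414 and 330 CPM in 501Mel and 145, 76.9 and 69.0 CPM in Hermes 3A (log2 difference 1.86 ± 0.339, adjusted p = 0.00401, edgeR). Of the 13 antioxidant genes, UCP2, an inner membrane carrier, was higher in 501Mel by 3.31 ± 0.467 (adjusted p = 0.00139, edgeR), and GPX1, a glutathione peroxidase, was lower, at -1.23 ± 0.138 (adjusted p = 0.000554, edgeR).

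Upstream, 44 partners and regulators of the PGC1 proteins were tested, with 5 called in each direction, against 17.2% and 17.1% of all genes, and a median log2 difference of 0.12. RORA, a nuclear receptor known to use PGC1α, was at 43.3 and 38.1 CPM in 501Mel and 4.15, 2.37 and 2.96 CPM in Hermes 3A (log2 difference 3.61 ± 0.292, adjusted p = 0.000145, edgeR). RXRG, a retinoid X receptor, was at 18.0 and 3.75 CPM in 501Mel and 0.171 to 0.336 CPM in Hermes 3A (5.42 ± 0.733, adjusted p = 0.00117, edgeR), and its paralogue RXRA was higher in Hermes 3A (-1.56 ± 0.172, adjusted p = 0.000507, edgeR). PPARG, the receptor through which PGC1α was first found, was at 0 and 2 counts in 501Mel and at 838, 501 and 281 counts in Hermes 3A (adjusted p = 0.000247, edgeR). The receptors in the list thus differed in both directions.

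Of the regulators, FOXO1, a factor that acts with PGC1α in fasting metabolism, was higher in Hermes 3A (-2.04 ± 0.330, adjusted p = 0.00246, edgeR), as was NR1H2, a liver X receptor (-1.59 ± 0.199, adjusted p = 0.000856, edgeR). TFEB, a relative of MITF, was higher in 501Mel (1.48 ± 0.425, adjusted p = 0.0243, edgeR). So was PERM1, a muscle regulator of PGC1 and ERR activity, at 0.744 and 1.77 CPM against 0.0998 to 0.384 CPM (2.08 ± 0.649, adjusted p = 0.0331, edgeR). PERM1 was not called with the replicate block, nor without 501Mel replicate 2, Hermes 3A replicate 2 or Hermes 3A replicate 3. TFEB was not called without 501Mel replicate 2 or Hermes 3A replicate 2. The 5 calls higher in 501Mel became 2 without 501Mel replicate 2, 2 without Hermes 3A replicate 2 and 3 without Hermes 3A replicate 3, and RORA and RXRG were called in each of these.

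Of 18 genes for mitochondrial dynamics and protein import, 3 were called higher in 501Mel and 1 higher in Hermes 3A, against 17.2% and 17.1% of all genes, with a median log2 difference of 0.10. HSPD1, the matrix chaperonin, was at 830 and 810 CPM in 501Mel and 310, 185 and 194 CPM in Hermes 3A (log2 difference 1.76 ± 0.265, adjusted p = 0.00181, edgeR). The import receptors TOMM70 and TOMM22 differed by 1.24 ± 0.149 (adjusted p = 0.000741) and 1.07 ± 0.188 (adjusted p = 0.00346, edgeR). TOMM22 was not called without 501Mel replicate 1, Hermes 3A replicate 2 or Hermes 3A replicate 3, while TOMM70, HSPD1 and FIS1 were called in each of the 13 alternatives. FIS1, a fission factor of the outer membrane, was higher in Hermes 3A (-1.11 ± 0.156, adjusted p = 0.00134, edgeR).

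**Figure D5:**
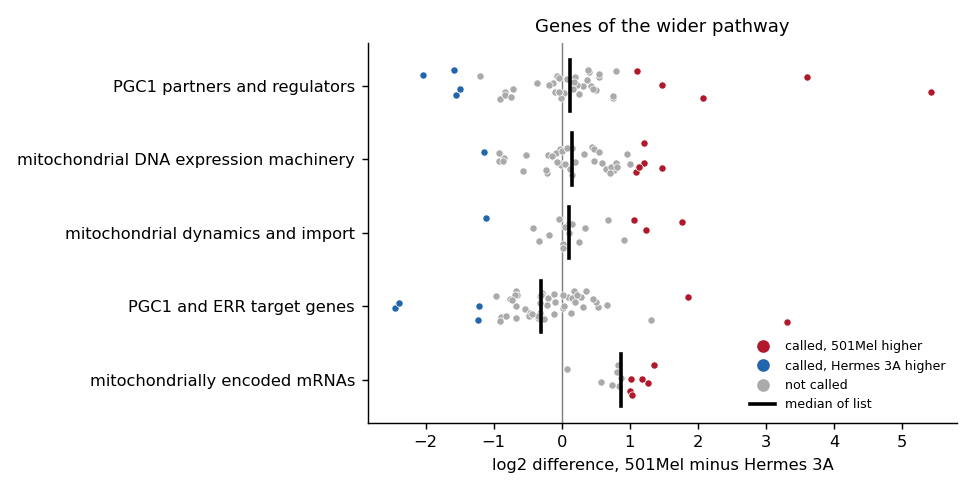
Log2 difference between the lines, 501Mel minus Hermes 3A, of each gene tested in the 5 lists (1 point per gene, vertical jitter without meaning), coloured where edgeR's adjusted p was at most 0.05 and the difference at least 2-fold, with a black bar at the median of the list. PPARG, at 0 and 2 counts in 501Mel, is not drawn but counts in its list's median. The mRNAs of the mitochondrial genome lie to the right (median 0.87) and the PGC1 and ERR target genes have the lowest median (-0.30).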

How the data were processed

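RNA-seq was analysed from 2 libraries of 501Mel and 3 of Hermes 3A cells, grouped by the labels. The authors deposited raw read counts per Ensembl gene for each library, made from rRNA-depleted total RNA treated with a duplex-specific nuclease. The submitters' processing notes name CASAVA 1.8, TopHat 1.4.1, Bowtie 0.12.7 and the genome build hg19. The counting tool and its strand setting are not given in the sources used here. The nuclease lowers abundant transcripts, so levels of different genes are compressed.

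Symbols, lengths and coordinates came from GENCODE 29 on GRCh38, a later build than that of the counts. No name was found for 2750 identifiers of the 501Mel files and 2326 of the Hermes 3A files. The files list different genes (37259 and 34033), and the 31029 in both hold 99.3% to 99.9% of counts, so the fit used these. CPM was taken over all counts of a library, and 3 counts equal 0.0697 to 0.0998 CPM, which covers counting error only.

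The lines were compared with edgeR 4.0.16 (R 4.3.3) by the quasi-likelihood test with TMM factors and filterByExpr. A call needed at least a 2-fold difference and a p of at most 0.05 after Benjamini-Hochberg adjustment over all 17975 genes. The standard error was the log2 difference divided by the square root of F. The procedure was run on simulated counts in which a far smaller share of genes differed than was called between these lines. That run therefore does not vouch for the calls here. Alternatives were DESeq2 1.42.0, RLE factors, library totals alone, other filters, mitochondrial genes removed, a replicate block and each library left out.

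The members and gene lists were chosen with earlier results of these data known. Named genes were all 10 members, all genes of lists of up to 8, and in longer lists up to 4 called genes per direction with the largest difference, plus the 5 genes most like PPARGC1A and pseudogene copies of members. Promoter sequences were from RefSeq (GRCh38.p14). Python 3.11.15, pandas 2.3.3 and matplotlib 3.10.9 were used.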

Additional observations from a re-analysis of the deposited data

How the results depend on the processing

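In the 13 alternatives all 10 members kept the sign of their difference (12 for ESRRG), which the choice of members on these libraries makes no sign of stability. Requiring 10 counts in every library left 1977 genes called higher in 501Mel and 1898 higher in Hermes 3A, from 3089 and 3068, since fewer genes were tested. Leaving out 1 library at a time gave 2233 to 3182 and 2633 to 3301 genes, 2 to 3 members called, a median member difference of 0.40 to 0.46, and 12 to 25 list genes higher in 501Mel (21 with all libraries, 12 without Hermes 3A replicate 3) and 11 to 16 higher in Hermes 3A (11 with all). The lone 501Mel library was then assumed to vary like the others. Overlapping neighbours in the order of levels rose from 0 to 2 in 501Mel with the longest transcript and to 2 with the coding length, and from 1 in Hermes 3A to 2, 4 and, with TMM library sizes, 2. Same-numbered libraries deviated together only weakly (r = 0.13 over 13823 genes, 2 numbers), so the numbers were not taken as pairs. With the replicate block 2730 and 2902 genes were called, 3 members, and 16 and 12 list genes, and the mitochondrial mRNAs called fell from 6 to 3. PMEL, TOMM22 and PERM1 were also not called with it, and TYR was. The member added to the 2 with the block is ESRRG, a description as for the others. Adding genes listed for 1 line as 0 was chosen after seeing the data. Depth limits ESRRG, with 3 to 65 counts in Hermes 3A.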

Other observations

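The 5 genes whose profile over the 5 libraries lay closest to that of PPARGC1A, by Euclidean distance between centred log2(CPM + 1) values among 13616 genes, were AC116351.1 (0.211), AC096719.1 (0.256), DLGAP1 (0.314), MCM2 (0.319) and AKAP12 (0.351). With 5 libraries in 2 lines the measure is set mainly by the gap between the lines. MCM2, a subunit of the replicative helicase, was at 129 and 164 CPM in 501Mel and at 19.1, 12.8 and 13.2 CPM in Hermes 3A. AKAP12, a scaffold for protein kinase A, was at 256 and 289 CPM in 501Mel and at 36.2, 28.8 and 27.2 CPM in Hermes 3A. AC116351.1 and AC096719.1 are annotated as antisense transcripts, the latter on chromosome 4, as is PPARGC1A.

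Among pseudogene copies of the members, GABPAP held 7 and 7 counts in 501Mel and 3, 2 and 1 in Hermes 3A, ESRRAP1 2, 1, 0, 0 and 0, and ESRRAP2 0, 2, 0, 3 and 1. Each was far below its parent gene in the same library.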
